A study of Homo sapiens with 14 samples.

Results

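HEK 293 cells that overexpress CFIm68 were compared with control HEK 293 cells, at the level of RNA counts for every expressed gene. The members are the 3 libraries labelled CFIm68 overexpression and the 3 control libraries, 6 of the 14 libraries of the series, chosen by their labels. The other 8 libraries hold CFIm25 knockdown (n = 2), CFIm68 knockdown (n = 3) and CFIm25 overexpression (n = 3). The CFIm25 overexpression and CFIm68 knockdown libraries serve below as direct comparators that share no control library with the overexpression of CFIm68. HEK 293 is an established human embryonic kidney cell line, and all groups are this line. Knockdown was by siRNA with Lipofectamine RNAiMAX. The control libraries are labelled wild type. The sources used here do not give how CFIm68 was overexpressed, whether those cells are 1 clone, or whether the controls received an empty vector or a control siRNA. No label says that the replicates of a group were grown apart, so the p-values compare these libraries only and the spread behind them may be technical.

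CFIm68, encoded by CPSF6, is the large subunit of cleavage factor I, a complex that binds UGUA motifs upstream of the site where a pre-mRNA is cut and polyadenylated. The complex joins a dimer of CFIm25, encoded by NUDT21, with CFIm68 or its relative CFIm59, encoded by CPSF7. It favours distal polyadenylation sites, and through them longer 3' untranslated regions, which can hold more binding sites for microRNAs and RNA-binding proteins. Counts per gene show only the amount of RNA, not which polyadenylation site was used.

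Total counts were 17734490 to 18385536 in the control libraries and 15822467 to 18297610 in the CFIm68 overexpression libraries. Across genes, log2 CPM (counts divided by the library total, scaled by TMM) of libraries of 1 group correlated at r = 0.993 to 0.995 in these groups, and no pair agreed within sampling noise. Of 17 genes on the kidney tubule and podocyte marker list, 13 were under 1 CPM in all 6 libraries and 5 were at 0. Of the rest, LRP2 was at 160 to 179 CPM in control and 182 to 194 CPM under overexpression. PODXL was at 48.8 to 52.4 and 45.6 to 49.7 CPM, and CUBN at 4.31 to 4.92 and 4.14 to 4.42 CPM. EMX1, also on the list, reached 1.10 CPM at most. The neurofilament gene NEFL, a known marker of HEK 293 cells, was at 267 to 290.2 CPM in control and at 192 to 219 CPM under overexpression. Of 14 HEK 293 genes 4 rose and 3 fell, the falls being NEFL (-0.40 ± 0.06), INA (-0.75 ± 0.11) and EYA1 (-0.45 ± 0.10). The 14 blood cell markers, 5 of them at 0, summed to 20.6 to 23.1 CPM in control and to 29.7 to 34.3 CPM under overexpression, with CD68 (0.83 ± 0.10) and CD14 (1.18 ± 0.30) past the threshold used below, and their part in the results was not tested.

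CPSF6 (chromosome 12, 69239537 to 69274358, hg38) was counted at 274, 262 and 268 CPM in the control libraries and at 717, 749.9 and 723 CPM in the CFIm68 overexpression libraries. The groups were far apart, 2.72-fold, with a log2 change of 1.45 ± 0.05 (± SE, edgeR quasi-likelihood test, p adjusted by Benjamini-Hochberg, adjusted p = 1.3e-19). The counts do not separate the resident gene from an introduced copy. NUDT21 (chromosome 16, 56429133 to 56452199) stood at 537, 500.4 and 505 CPM in control and at 646, 597 and 549.7 CPM under overexpression. Its lowest overexpression library lay just above its highest control library, and its log2 change was 0.22 ± 0.06 (edgeR adjusted p = 0.0049). After subtraction of the median change of the 50 tested genes around it, the change was 0.09 and no longer passed (edgeR adjusted p = 0.31). CPSF7, at 265, 272 and 282 CPM against 296, 282 and 301 CPM, had overlapping groups and did not pass (log2 change 0.10 ± 0.05, edgeR adjusted p = 0.13).

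Beyond CPSF6, many genes differed by a little between the CFIm68 overexpression and control libraries and a smaller set by a great deal, and the changes of at least 4-fold were nearly all falls. Of 12080 tested genes 1746 were higher (14.5%) and 1859 were lower (15.4%), 29.8% in all, at an edgeR adjusted p under 0.05. Changes of at least 1.5-fold were 279 rises (2.31%) and 421 falls (3.49%). At least 2-fold changes were 90 rises (0.745%) and 243 falls (2.01%). At least 4-fold changes were 2 rises (0.0166%) and 108 falls (0.894%). A fit to the compared groups alone, which filters and pools over 6 libraries, gave 71 such falls. The 108 falls had a median control mean of 1.15 CPM, with 35 of them at 2 CPM or more and 21 at 5 CPM or more. The 2 rises, SLC43A3 and SULT1A2, were under 1 CPM in all 6 libraries. The plot of change against level shows this lopsided shape.

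**Figure D1:**
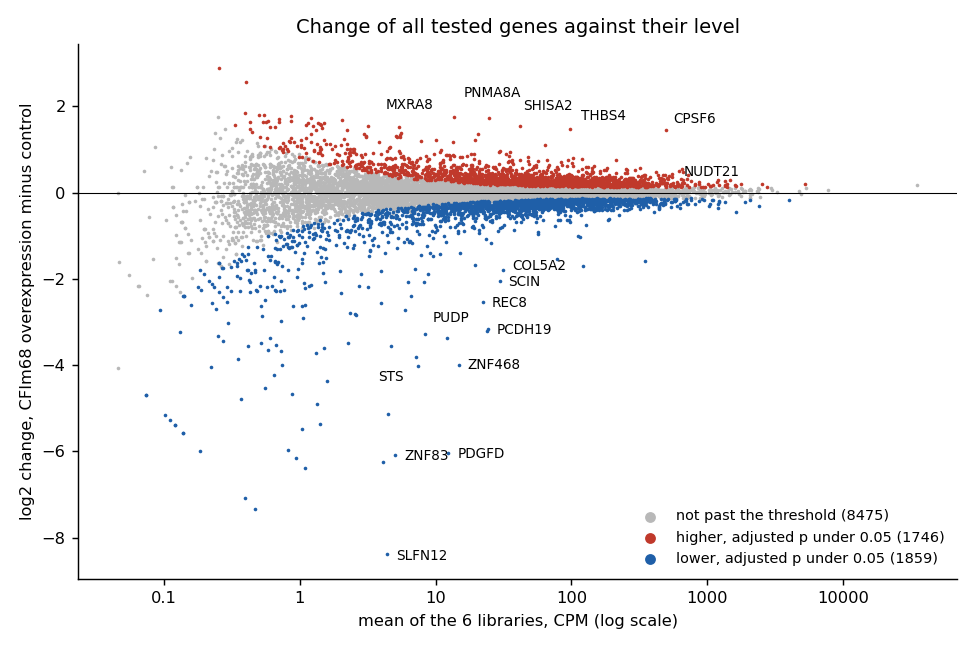
Each point is 1 of 12080 tested genes, with the mean of the 6 libraries in CPM on a log axis and the log2 change of CFIm68 overexpression against control on the other. The 1859 lower genes reach far below 0, with ZNF83 at -6.07 and PDGFD at -6.04, whereas 2 of the 1746 higher genes lie above 2. For genes with almost no counts in 1 group the fitted change depends on the prior count.

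In the CFIm68 overexpression libraries 9 genes were near 0. By rule, every overexpression library was under 0.5 CPM and every control library above 2 CPM. No gene met the opposite rule, which would have marked a gene as switched on. SLFN12, a Schlafen family protein (chromosome 17, 35411060 to 35433283), was at 8.85, 9.56 and 7.93 CPM in control and at 0, 0 and 0.0627 CPM under overexpression, 474 counts against 1 count in all (edgeR adjusted p = 4.8e-17). RAB17, a small GTPase of epithelial membrane traffic (chromosome 2, 237574322 to 237601614), was at 7.37, 7.70 and 9.20 CPM in control and 0.195, 0.0557 and 0.0627 CPM under overexpression (log2 change -6.24 ± 0.29, edgeR adjusted p = 2.0e-16). The remaining genes in this group are 4 zinc finger genes (ZNF83, ZNF667, ZNF600 and ZNF682), TAF7L, which encodes a variant subunit of the transcription factor TFIID, ATP2B3, a plasma membrane calcium pump, and MAGI2, a synaptic and junctional scaffold. ZNF682 had 148 counts in control and 3 under overexpression. In bulk RNA, fewer cells that express a gene and less RNA per cell cannot be told apart.

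Where the 6 libraries averaged 5 CPM or more and the groups did not overlap, the 15 steepest falls ran from log2 changes of -6.07 to -2.05. PDGFD, a platelet-derived growth factor, was at 24.96, 23.5 and 24.7 CPM in control and 0.325, 0.223 and 0.565 CPM under overexpression (chromosome 11, 103907186 to 104164379; log2 change -6.04 ± 0.17, edgeR adjusted p = 6.9e-21). Its overexpression libraries held almost no reads, whereas CFIm25 overexpression stood at 60.6 ± 5.31 CPM (SD, n = 3), a direct log2 difference of -7.35 ± 0.15 (edgeR adjusted p = 2.6e-25). PCDH19, a protocadherin adhesion protein (chromosome X, 100291644 to 100410273), fell from 43.8, 45.2 and 41.1 CPM to 5.26, 4.57 and 4.77 CPM (log2 change -3.16 ± 0.09, edgeR adjusted p = 6.9e-21). STS, steroid sulfatase, fell from 14.5, 14.1 and 13.1 CPM to 0.975, 0.835 and 0.753 CPM (log2 change -4.02 ± 0.15, edgeR adjusted p = 3.4e-18). PUDP, a pseudouridine 5'-phosphatase and its neighbour on the X chromosome, fell from 43.5, 41.3 and 44.1 CPM to 6.37, 4.18 and 3.51 CPM (log2 change -3.21 ± 0.11, edgeR adjusted p = 4.8e-19). STS and PUDP were the only tested genes within 750 kb of STS (chromosome X, 7219456 to 7354810; PUDP at chromosome X, 7048920 to 7148190).

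Other steep falls came from unrelated families. PLA2G4A, cytosolic phospholipase A2, fell from 22.2 ± 1.67 to 2.15 ± 0.287 CPM (means ± SD, n = 3, as in the ranges that follow; log2 change -3.37 ± 0.12). REC8, a meiotic cohesin subunit, fell from 37.8 ± 1.23 to 6.51 ± 1.68 CPM (-2.53 ± 0.10), and SCIN, the actin-severing protein scinderin, from 47.7 ± 2.08 to 11.5 ± 1.09 CPM (-2.05 ± 0.08). CYP27A1, sterol 27-hydroxylase, fell from 10.4 ± 1.23 to 1.55 ± 0.797 CPM (-2.71 ± 0.19). The enamel protein gene AMBN (-2.41 ± 0.16), the small GTPase gene RAB39B (-2.07 ± 0.14) and the neuropeptide gene NTS (-2.06 ± 0.15) completed those outside the zinc finger family. By the rule that picked them, all of these passed and none had overlapping groups, so neither adds to their choice. Their edgeR adjusted p-values were at most 2.7e-11. Over all 12080 tested genes, the groups did not overlap in 4834 (40%).

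**Figure D2:**
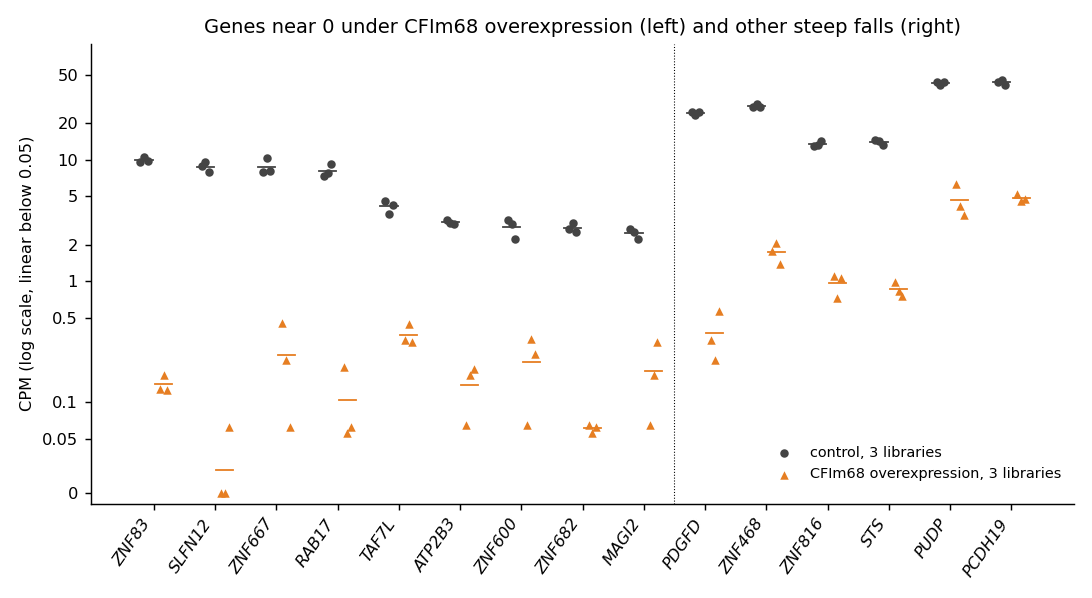
Points are CPM in each of 3 control (circles) and 3 CFIm68 overexpression libraries (triangles), with bars at the means, for the 9 genes near 0 under overexpression and 6 others that fell steeply. By the rules that picked these genes, all overexpression libraries lie below all control libraries for each gene, and the 9 genes stay under 0.5 CPM.

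Zinc finger genes made up part of the 108 falls of at least 4-fold. Of the 108, 22 have a zinc finger name, against 3.49% of all tested genes: 21 protein-coding genes and the noncoding ZNF667-AS1. Of the same 108, 24 lie on chromosome 19 (22.2%, against 7.18% of all tested genes) and 11 on the X chromosome (10.2%, against 3.47%). C2H2 zinc finger proteins are a large family of DNA-binding proteins, many of them repressors of transposable elements, with clusters of related genes on chromosome 19. Of all 421 tested genes with such a name 45 were higher and 53 lower, smaller shares than the 14.5% and 15.4% of all genes. Without CFIm68 overexpression replicate 2 the counts were 25 and 40, when 2774 of all tested genes passed in place of 3605. Of the 53 lower genes 15 lie around ZNF83.

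Around ZNF83 on chromosome 19, 28 tested genes lie within 750 kb, 27 of them zinc finger genes. Of the 28, 15 fell, 9 of them at least 4-fold, and 0 rose. Among the 9, ZNF701, ZNF28, ZNF610 and ZNF347 were at low control levels of 0.167, 0.427, 0.519 and 0.667 CPM. From ZNF610 to ZNF677 (52336245 to 53254898) all 13 tested genes fell. ZNF83 itself was at 9.53, 10.6 and 9.70 CPM in control and 0.130, 0.167 and 0.125 CPM under overexpression (log2 change -6.07 ± 0.26, edgeR adjusted p = 3.0e-17). ZNF468 was at 27.4, 28.9 and 27.4 CPM in control and 1.75, 2.06 and 1.38 CPM under overexpression (-4.00 ± 0.13, edgeR adjusted p = 4.5e-20). ZNF816 fell from 12.9, 13.3 and 14.1 CPM to 1.10, 0.724 and 1.07 CPM (-3.81 ± 0.15), and ZNF808 from 8.68, 9.01 and 8.21 CPM to 1.04, 0.557 and 0.627 CPM (-3.55 ± 0.19). ZNF611 in the same stretch fell less, from 13.2, 14.7 and 11.2 CPM to 7.02, 6.57 and 5.21 CPM (-1.05 ± 0.13). Next to this run, ZNF480 (-0.18 ± 0.09) on one side and ZNF765 (0.13 ± 0.29) and ZNF761 (0.36 ± 0.21) on the other did not pass. Genes of this family are similar in sequence, so the authors' counting could split reads between them, and single values are uncertain to that extent.

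**Figure D3:**
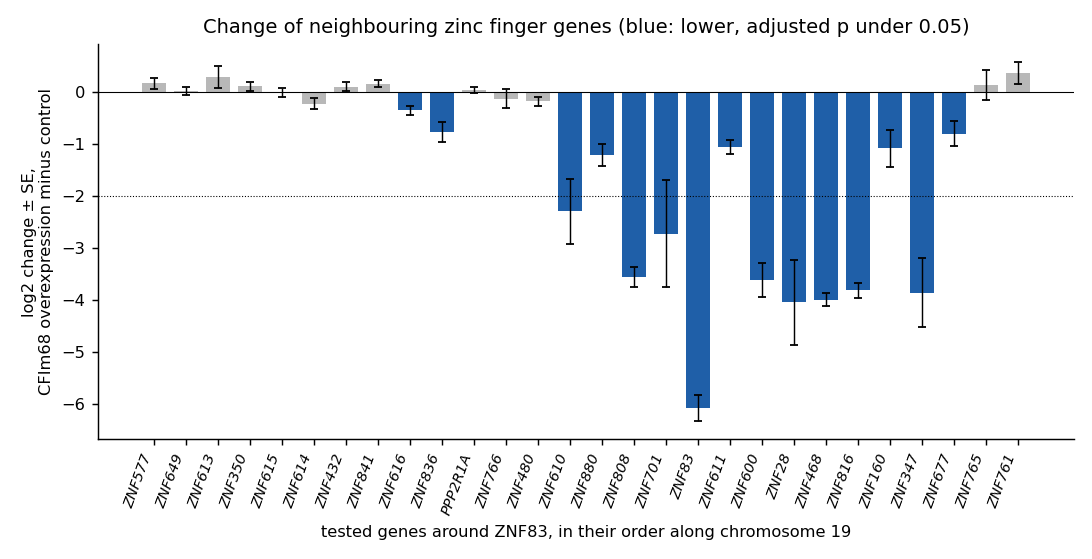
Bars are log2 changes with SE for the 28 tested genes around ZNF83, in their order along chromosome 19, blue where lower at an adjusted p under 0.05. The 13 genes from ZNF610 to ZNF677 are all blue, with ZNF83 lowest at -6.07.

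Elsewhere on the chromosome, ZNF681 fell from 14.7, 17.1 and 13.9 CPM to 1.82, 1.22 and 1.69 CPM (-3.28 ± 0.16), and ZNF726 (-4.00 ± 0.45) and the noncoding LINC01224 (-3.66 ± 0.54) nearby fell too, while ZNF675 and ZNF254 between and beside them did not pass. ZNF667 fell from 7.88, 10.3 and 8.04 CPM to 0.455, 0.223 and 0.0627 CPM (-5.13 ± 0.27) together with its antisense neighbour ZNF667-AS1 (-2.87 ± 0.48). The strand setting of the counting is not given, so reads of ZNF667 and ZNF667-AS1 cannot be told apart. In the other direction, ZNF785 on chromosome 16 rose from 1.99, 3.33 and 3.44 CPM to 7.34, 6.96 and 7.53 CPM (1.31 ± 0.17, edgeR adjusted p = 1.5e-06), a gene listed at 0 in CFIm25 overexpression.

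Promoter sequences are given for the genes of the chromosome 19 run that fell at least 4-fold from a control level of at least 5 CPM, for 2 neighbours that did not pass, and for 3 of the steepest falls elsewhere. They come from the RefSeq table (GRCh38.p14), which held a promoter for 9771 of the 12080 tested genes. They run from 250 bases before to 50 bases after the start in that table, 5' to 3', with CG dinucleotides in capitals. A single promoter was used for each gene. For ZNF468 and ZNF765 it lies well inside the gene as placed by GENCODE 29 (52838008 to 52890375 and 53389793 to 53430413), so other starts of these genes are not shown. In ZNF83 (chr19:52690447-52690746, minus strand), ZNF468 (chr19:52857570-52857869, minus strand), ZNF816 (chr19:52962832-52963131, minus strand) and ZNF808 (chr19:52527418-52527717, plus strand), which fell, CG occurs 29, 30, 25 and 29 times.
ZNF83: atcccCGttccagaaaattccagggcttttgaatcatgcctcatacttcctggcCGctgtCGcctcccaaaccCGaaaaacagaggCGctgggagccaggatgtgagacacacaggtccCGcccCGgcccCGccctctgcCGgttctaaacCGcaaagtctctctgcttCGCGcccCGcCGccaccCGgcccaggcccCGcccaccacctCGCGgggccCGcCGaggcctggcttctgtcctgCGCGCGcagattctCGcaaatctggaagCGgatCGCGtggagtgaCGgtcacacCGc
ZNF468: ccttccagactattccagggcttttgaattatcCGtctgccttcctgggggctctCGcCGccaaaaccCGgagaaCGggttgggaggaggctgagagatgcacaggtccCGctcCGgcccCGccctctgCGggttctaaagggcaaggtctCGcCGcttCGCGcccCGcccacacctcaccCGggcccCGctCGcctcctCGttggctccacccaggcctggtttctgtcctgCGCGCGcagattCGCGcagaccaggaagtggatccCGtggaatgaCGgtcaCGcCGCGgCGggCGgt
ZNF816: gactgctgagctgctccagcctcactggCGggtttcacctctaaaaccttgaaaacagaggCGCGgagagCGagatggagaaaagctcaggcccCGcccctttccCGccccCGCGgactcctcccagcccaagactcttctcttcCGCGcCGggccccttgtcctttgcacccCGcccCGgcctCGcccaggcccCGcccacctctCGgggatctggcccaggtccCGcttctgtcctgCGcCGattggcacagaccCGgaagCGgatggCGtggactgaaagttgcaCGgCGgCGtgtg
ZNF808: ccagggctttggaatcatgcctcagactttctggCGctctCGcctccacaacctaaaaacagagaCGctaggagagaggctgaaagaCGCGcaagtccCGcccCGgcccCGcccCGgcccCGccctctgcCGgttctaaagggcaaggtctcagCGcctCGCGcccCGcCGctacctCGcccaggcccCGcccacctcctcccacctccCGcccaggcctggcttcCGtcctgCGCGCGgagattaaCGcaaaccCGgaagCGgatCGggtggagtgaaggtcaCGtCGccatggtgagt
ZNF765 (chr19:53394899-53395198, plus strand) and ZNF841 (chr19:52095716-52096015, minus strand), which did not pass, hold 25 and 22.
ZNF765: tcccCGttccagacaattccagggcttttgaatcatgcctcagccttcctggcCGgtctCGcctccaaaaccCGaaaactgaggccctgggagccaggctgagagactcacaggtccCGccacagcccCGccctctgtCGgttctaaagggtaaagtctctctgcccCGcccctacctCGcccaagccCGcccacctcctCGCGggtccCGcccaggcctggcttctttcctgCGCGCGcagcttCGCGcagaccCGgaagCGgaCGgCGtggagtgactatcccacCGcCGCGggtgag
ZNF841: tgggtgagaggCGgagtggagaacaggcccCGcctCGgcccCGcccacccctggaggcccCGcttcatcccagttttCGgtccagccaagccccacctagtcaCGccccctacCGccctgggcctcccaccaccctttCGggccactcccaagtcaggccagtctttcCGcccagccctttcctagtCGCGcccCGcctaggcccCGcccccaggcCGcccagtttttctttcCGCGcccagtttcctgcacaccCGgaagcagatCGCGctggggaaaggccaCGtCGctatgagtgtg
PDGFD (chr11:104164098-104164397, minus strand), PCDH19 (chrX:100410224-100410523, minus strand) and SLFN12 (chr17:35433125-35433424, minus strand), which fell outside the cluster, hold 26, 26 and 13.
PDGFD: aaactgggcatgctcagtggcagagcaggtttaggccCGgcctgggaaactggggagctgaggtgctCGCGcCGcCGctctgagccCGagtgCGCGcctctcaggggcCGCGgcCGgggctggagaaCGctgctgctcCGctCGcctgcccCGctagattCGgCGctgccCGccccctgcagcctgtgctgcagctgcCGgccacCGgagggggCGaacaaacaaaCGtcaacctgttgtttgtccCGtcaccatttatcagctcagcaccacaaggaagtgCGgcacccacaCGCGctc
PCDH19: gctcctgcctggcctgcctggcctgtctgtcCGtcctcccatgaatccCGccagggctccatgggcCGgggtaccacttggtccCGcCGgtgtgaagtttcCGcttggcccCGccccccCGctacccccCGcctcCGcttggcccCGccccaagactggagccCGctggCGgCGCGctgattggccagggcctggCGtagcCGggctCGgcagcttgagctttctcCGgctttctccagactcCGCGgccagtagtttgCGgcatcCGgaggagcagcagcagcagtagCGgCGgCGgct
SLFN12: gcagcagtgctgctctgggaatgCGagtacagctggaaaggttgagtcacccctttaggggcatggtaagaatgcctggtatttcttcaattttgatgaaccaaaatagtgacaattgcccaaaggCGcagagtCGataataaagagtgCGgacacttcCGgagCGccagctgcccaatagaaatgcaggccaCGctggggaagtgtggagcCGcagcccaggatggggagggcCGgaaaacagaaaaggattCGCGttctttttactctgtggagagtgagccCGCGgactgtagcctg

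In a global alignment, the promoters of the 5 neighbouring zinc finger genes that fell at least 4-fold and had an entry were 55.8% to 77.4% identical with that of ZNF83 (median 73.3%). The 6 neighbours that fell by less were 52.8% to 79.1% identical (median 54.1%). The 10 neighbours that did not pass were 49.0% to 81.9% identical (median 51.8%), and 150 other zinc finger genes on chromosome 19 44.0% to 55.9% (median 50.1%). Likeness to ZNF83 alone did not separate the genes that fell: the promoters of ZNF765 (81.9%) and ZNF761 (76.8%) were among the most alike, and neither gene passed (log2 changes 0.13 ± 0.29 and 0.36 ± 0.21), though both were at low levels in control (0.833 and 1.48 CPM). Of the 108 genes that fell at least 4-fold 87 had a promoter (80.6%). CG occurred a median of 20 times in them, against 26 over all tested genes and 24 over those with a control mean under 20 CPM. At least 10 CG were found in 71.3% of them, against 88.1% of all and 79.96% of the low-level genes. The TATA box letters TATAAA, on either strand, were found in 8 of the 87 (9.20%), against 5.68% of all tested promoters and 7.34% of the low-level ones. Few CG and TATAAA were not traits of the falls alone. Of the 90 rises of at least 2-fold 63 had a promoter, with a median of 10 CG, at least 10 CG in 50.8% and TATAAA in 9.52%, but with under 80% of genes matched these values are incomplete.

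The motif bound by cleavage factor I was counted as TGTA on the transcript strand of the longest annotated 3' untranslated region of each gene (GENCODE 29). These regions had a median length of 1439 bases in the higher genes, 1295 in the lower and 1311 in those that did not pass. TGTA occurred at medians of 4.997, 5.15 and 4.84 per kb. Among larger changes the order of the lengths was the opposite: the 268 genes at least 1.5-fold higher had a median of 979 bases and 3.84 TGTA per kb, the 409 at least 1.5-fold lower 1258 bases and 5.22, and the 105 at least 4-fold lower 1536 bases and 5.55. With a mean of at least 20 CPM, the 48 at least 1.5-fold higher had 1398 bases and 4.17 TGTA per kb, and the 44 at least 1.5-fold lower 1941 bases and 6.51. The lengths varied widely within each group (middle 50% of 620.3 to 2855 bases in all higher genes and 539.8 to 2658 in all lower genes). The annotation gives the longest form, not the one these cells used, and no test was run on these medians.

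The largest rises were smaller than the largest falls. MXRA8, a cell-surface receptor of the immunoglobulin type, was at 5.56, 7.27 and 5.99 CPM in control and 17.5, 22.5 and 23.6 CPM under overexpression (log2 change 1.76 ± 0.13, edgeR adjusted p = 1.0e-11). PNMA8A rose from 12.6, 12.2 and 9.43 CPM to 38.9, 39.1 and 34.9 CPM (1.72 ± 0.10, edgeR adjusted p = 3.1e-14). THBS4, a thrombospondin of the extracellular matrix, rose from 47.4, 55.01 and 52.6 CPM to 131, 147 and 151 CPM (1.47 ± 0.06, edgeR adjusted p = 3.4e-17), and SHISA2, which restrains FGF and WNT receptors, from 19.97, 22.3 and 21.6 CPM to 62.5, 63.1 and 59.4 CPM (1.53 ± 0.07). In each of these the lowest overexpression library was more than 2 times the highest control library.

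Of the other large rises, the metalloprotease gene ADAMTS18 rose from 11.6 ± 1.21 to 29.4 ± 0.658 CPM (1.35 ± 0.10), and CCBE1, a secreted factor of lymphatic growth, from 11.7 ± 1.54 to 27.2 ± 0.866 CPM (1.22 ± 0.09). The antiviral tether BST2 (1.38 ± 0.15), the Nogo receptor relative RTN4RL1 (1.33 ± 0.17), the lipid phosphatase PLPP2 (1.29 ± 0.15), the potassium channel KCNJ4 (1.22 ± 0.15), the exocytosis protein DOC2B (1.29 ± 0.15), the contact-site protein GRAMD2A (1.52 ± 0.18) and aldehyde oxidase AOX1 (1.20 ± 0.14) rose from control levels of 2.80 to 6.04 CPM. Each was picked from the genes past the threshold, and had an edgeR adjusted p of at most 1.3e-06.

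Direct contrasts with the other perturbed groups tested which of these changes differed between them. Against CFIm25 overexpression 7699 genes differed (63.7%; 32.9% higher with CFIm68 and 30.8% lower), and against CFIm68 knockdown 8109 (67.1%; 33.5% higher and 33.7% lower). Of the 108 falls of at least 4-fold, which were picked for low values in the overexpression libraries, 94 were also lower than in CFIm25 overexpression, 3 were higher (GABRA5, ISL1 and PLXDC2) and 11 did not pass. Against CFIm68 knockdown 105 were lower and 0 higher. For ZNF83, CFIm25 overexpression stood at 43.2 ± 3.91 CPM and CFIm68 knockdown at 15.2 ± 0.512 CPM, and the direct log2 differences were -8.19 ± 0.19 (edgeR adjusted p = 5.6e-24) and -6.68 ± 0.23 (edgeR adjusted p = 6.8e-20). PCDH19 stood at 201 ± 15.6 CPM with CFIm25 overexpression, a direct log2 difference of -5.37 ± 0.08.

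Among the 11 that did not pass against CFIm25 overexpression, TAF7L was at 0.361 CPM with CFIm68 and 0.380 ± 0.170 CPM with CFIm25 overexpression (log2 difference -0.05 ± 0.44, edgeR adjusted p = 0.93). CYP27A1 was at 1.55 and 1.44 ± 0.271 CPM (0.11 ± 0.28, edgeR adjusted p = 0.73), and LUM, the matrix proteoglycan lumican, at 0.0766 and 0.109 ± 0.102 CPM against 2.61 ± 0.594 CPM in control. A p that misses the threshold does not show that these levels are alike. Of the 90 rises of at least 2-fold, picked for high values in the CFIm68 overexpression libraries, 64 were also higher than in CFIm25 overexpression and 0 lower, and 82 were higher and 2 lower than in CFIm68 knockdown. BST2 was at 7.21 ± 0.812 CPM in CFIm25 overexpression (log2 difference 0.17 ± 0.12, edgeR adjusted p = 0.24) and stood higher in CFIm68 knockdown, at 12.9 ± 0.808 CPM (-0.68 ± 0.11, edgeR adjusted p = 4.3e-06). PNMA8A was at 0.0713 ± 0.0370 CPM in CFIm25 overexpression, a direct log2 difference of 8.98 ± 0.22 (edgeR adjusted p = 1.7e-23). The protocadherin genes PCDH20 (21.8 ± 1.79 to 8.28 ± 0.420 CPM) and PCDH10 (4.44 ± 0.175 to 1.18 ± 0.282 CPM) fell with CFIm68 but stood lower still with CFIm25 overexpression, at 0.309 ± 0.140 and 0.257 ± 0.0255 CPM.

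Gene lists are described by counts beside the background of 14.5% higher and 15.4% lower, with a median log2 change of 0.01 over all tested genes. After subtraction of neighbour medians this background itself was smaller, at 1217 higher and 1179 lower genes. Without CFIm68 overexpression replicate 2 or 3, 2774 and 3039 genes passed in place of 3605. Without control replicate 1, 2 or 3 the totals were 2874, 3143 and 3141. Counts of list members under these settings stand beside these smaller totals. Of 36 tested members of the unfolded protein and ATF4 response 16 rose, 3 fell and 17 did not pass, with a median of 0.16. ATF4 is the transcription factor that raises amino acid supply when protein synthesis is strained. ALDH1L2, a mitochondrial folate enzyme, was at 40.4, 44.2 and 37.4 CPM in control and 90.7, 87.5 and 84.1 CPM under overexpression (1.10 ± 0.07, edgeR adjusted p = 3.5e-12). The amino acid transporters SLC7A5 (159 ± 6.10 to 268 ± 20.9 CPM, 0.75 ± 0.07) and SLC7A1 (529 ± 15.9 to 771 ± 28.5 CPM, 0.54 ± 0.05) rose, as did the serine enzymes PSAT1 (0.58 ± 0.07) and SHMT2 (0.41 ± 0.05) and the stress-induced SESN2 (0.62 ± 0.09). SLC7A1 lies in a stretch of 50 tested genes on chromosome 13 with a median log2 change of 0.33, where 35 rose and 0 fell. ATF4 itself rose (0.46 ± 0.06). Of the endoplasmic reticulum proteins in the list, the chaperone HSPA5, chosen after its value was seen, had overlapping groups (0.05 ± 0.05, edgeR adjusted p = 0.5), and the disulfide isomerases PDIA4 (-0.15 ± 0.05) and PDIA6 (-0.18 ± 0.05) fell. After subtraction of neighbour medians 14 members of the list rose and 1 fell, so PDIA4 and PDIA6 did not both keep their calls. SLC7A5 and PSAT1 stood higher in CFIm25 overexpression, at 430.1 ± 23.6 and 292 ± 18.4 CPM, with direct log2 differences of -0.68 ± 0.07 and -0.79 ± 0.06. The whole list had a larger median log2 change in CFIm25 overexpression against the same controls, 0.69, so its rise was not particular to CFIm68 overexpression. Of its 36 tested members 32 differed between the 2 overexpression groups in either direction, against 63.7% of all tested genes.

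Of 29 tested hypoxia and glycolysis genes 14 fell and 1 rose, with a median log2 change of -0.19. HK2, the hexokinase that starts glycolysis, fell from 127, 124 and 99.8 CPM to 67.2, 79.1 and 79.4 CPM (-0.63 ± 0.07, edgeR adjusted p = 1.2e-07). The mitophagy receptors BNIP3L (27.7 ± 3.38 to 16.4 ± 0.318 CPM, -0.75 ± 0.09) and BNIP3 (66.9 ± 8.36 to 41.8 ± 2.59 CPM, -0.68 ± 0.10), both known targets of HIF1, fell, as did the lysyl oxidase LOX (39.1 ± 10.4 to 22.3 ± 2.45 CPM, -0.80 ± 0.13). LOX varied among the controls (36.6, 50.5 and 30.1 CPM). The glycolytic enzyme gene GAPDH did not pass (-0.04 ± 0.05).

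Of 27 tested interferon and antigen presentation genes 10 fell and 4 rose, and 6 fell and 4 rose without CFIm68 overexpression replicate 2. OAS3, a sensor of double-stranded RNA, fell from 14.6, 14.9 and 12.9 CPM to 4.74, 5.18 and 5.27 CPM (-1.48 ± 0.10, edgeR adjusted p = 9.0e-12), and IFI35 from 5.26 ± 0.431 to 2.25 ± 0.308 CPM (-1.23 ± 0.17). BST2 rose, as given above, and so did the membrane proteins IFITM1 (5.58 ± 0.676 to 9.69 ± 0.750 CPM, 0.80 ± 0.12), IFITM2 (0.67 ± 0.17) and IFITM3 (0.94 ± 0.21).

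Of 28 tested NOTCH pathway genes 8 rose and 1 fell (median 0.14). The receptor NOTCH1 was at 52.4, 56.04 and 52.8 CPM in control and 75.4, 78.8 and 87.4 CPM under overexpression (0.58 ± 0.08, edgeR adjusted p = 1.6e-06). The ligands JAG1 (107 ± 7.05 to 148 ± 6.57 CPM, 0.47 ± 0.06), DLL1 (18.5 ± 0.713 to 27.8 ± 3.15 CPM, 0.59 ± 0.09) and DLL4 (0.70 ± 0.18) rose. Of the targets, HES4 rose (0.36 ± 0.09), HEYL fell (-0.24 ± 0.07), and HES1 (-0.08 ± 0.07) and HEY1 (0.18 ± 0.08) did not pass. In CFIm68 knockdown NOTCH1 stood at 27.4 ± 0.843 CPM and JAG1 at 72.96 ± 1.38 CPM, direct log2 differences of 1.55 ± 0.08 and 1.02 ± 0.06. Of 32 WNT pathway genes 10 rose and 6 fell. The counts were 7 and 2 without CFIm68 overexpression replicate 2, 6 and 5 without its replicate 3, and 8 and 2 after subtraction of neighbour medians. Among them the receptor genes FZD4 (63.7 ± 3.25 to 89.4 ± 3.37 CPM, 0.49 ± 0.06), FZD5 (0.36 ± 0.05) and LGR4 (0.32 ± 0.06) rose.

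**Figure D4:**
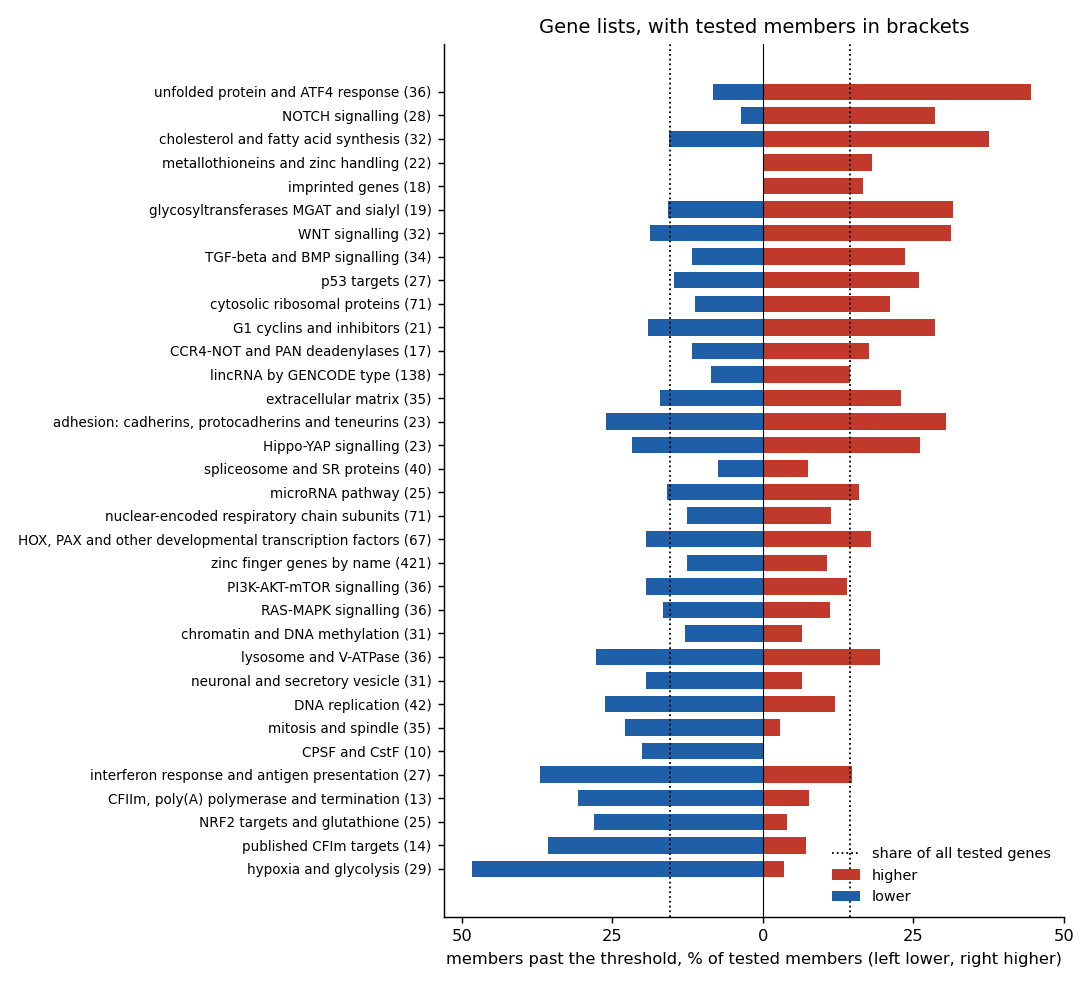
Bars give the share of each list's tested members (number in brackets) that were higher (red, right) or lower (blue, left) at an adjusted p under 0.05, and dotted lines the 14.5% and 15.4% of all tested genes. At the top, 16 of 36 genes of the ATF4 list rose, and at the bottom, 14 of 29 of the hypoxia list fell.

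Of 35 mitosis genes 8 fell and 1 rose, and of 42 DNA replication genes 11 fell and 5 rose. Mitosis falls numbered 5 without CFIm68 overexpression replicate 2 or 3 or control replicate 1, and replication rises 2 without control replicate 1. TK1, thymidine kinase, fell from 227, 214 and 239.99 CPM to 137, 145 and 157 CPM (-0.63 ± 0.06, edgeR adjusted p = 1.7e-09). TPX2, a spindle assembly factor, fell from 378 ± 5.79 to 300.03 ± 9.11 CPM (-0.33 ± 0.04), and the replication genes POLD2 (-0.39 ± 0.05) and RRM2 (-0.37 ± 0.06) fell too. Of 25 NRF2 targets and glutathione genes 7 fell and 1 rose. ME1, an NADPH-producing malic enzyme, fell (-0.42 ± 0.05), while the classical target NQO1 did not pass (0.29 ± 0.12).

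Matrix, adhesion and developmental genes held several large single changes. Of 35 matrix genes 8 rose and 6 fell. COL5A2 fell from 49.7, 49.00 and 47.6 CPM to 12.8, 15.8 and 13.6 CPM (-1.79 ± 0.07, edgeR adjusted p = 1.9e-17) and COL1A1 from 49.2 ± 2.26 to 26.8 ± 1.78 CPM (-0.88 ± 0.07), whereas tenascin TNC rose from 43.5 ± 2.77 to 65.97 ± 6.59 CPM (0.60 ± 0.07). The 14 fibroblast and mesenchymal markers, COL1A1 among them, summed to 168 to 179.7 CPM in control and to 141 to 144 CPM under overexpression, with 5 at 0, and their part in these results was not tested. Of 67 developmental transcription factors 12 rose and 13 fell, with 7 rises without CFIm68 overexpression replicate 3. Split by cluster after the values were seen, 7 of 10 tested HOXA genes fell and 1 rose, 2 of 6 HOXB genes rose and 0 fell, 1 of 6 HOXC genes rose and 0 fell, and 0 of 6 HOXD genes rose and 2 fell. HOXA13 fell from 152, 177 and 132 CPM to 75.2, 82.2 and 69.4 CPM (-1.02 ± 0.09), HOXA5 from 56.2 ± 3.96 to 38.2 ± 2.32 CPM (-0.56 ± 0.07), and HOXB6 rose from 47.8 ± 2.32 to 67.3 ± 3.16 CPM (0.49 ± 0.06). PRAME, a cancer-testis antigen, rose from 78.5, 76.97 and 78.6 CPM to 126, 124 and 125 CPM (0.68 ± 0.05, edgeR adjusted p = 2.7e-11).

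Several other lists had members that changed by over 1.5-fold. Of 36 RAS-MAPK genes 4 rose and 6 fell: the feedback inhibitor SPRY4 rose from 3.06, 3.11 and 2.66 CPM to 6.56, 5.62 and 6.02 CPM (1.04 ± 0.15, edgeR adjusted p = 4.1e-06) and FOSL1, a partner of JUN, from 2.76 ± 0.284 to 5.16 ± 0.670 CPM (0.90 ± 0.17). Of 34 TGF-beta and BMP genes 8 rose and 4 fell, with 4 rises without CFIm68 overexpression replicate 2 or control replicate 3 and 5 without control replicate 1. ID2, an inhibitor of helix-loop-helix factors that BMP induces, fell from 71.6, 79.9 and 71.1 CPM to 39.1, 38.5 and 40.7 CPM (-0.91 ± 0.06, edgeR adjusted p = 7.3e-12). Of 19 MGAT and sialyltransferase genes 6 rose and 3 fell: ST3GAL3 rose from 0.332 ± 0.161 to 1.08 ± 0.325 CPM (1.70 ± 0.41) and ST8SIA4, which makes polysialic acid, fell from 1.81 ± 0.253 to 0.385 ± 0.283 CPM (-2.22 ± 0.35). Of 32 cholesterol and fatty acid genes 12 rose and 5 fell, with 7 rises without CFIm68 overexpression replicate 2 or control replicate 1 and 4 after subtraction of neighbour medians. The elongase gene ELOVL6 rose from 116 ± 3.78 to 156 ± 2.08 CPM (0.42 ± 0.05), whereas INSIG1, which holds back sterol synthesis, fell from 120.5 ± 7.88 to 75.3 ± 4.42 CPM (-0.68 ± 0.09). Of 71 cytosolic ribosomal protein genes 15 rose and 8 fell, but 7 rose and 8 fell without control replicate 2 and 24 rose and 2 fell without control replicate 3, so no direction is given for them.

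Of 10 tested CPSF and CstF genes 2 fell and 0 rose. CPSF3, the endonuclease that cuts the pre-mRNA, fell from 219, 212 and 223 CPM to 188, 169 and 175 CPM (-0.29 ± 0.05, edgeR adjusted p = 5.8e-05), and CPSF2 from 271, 259.5 and 248 CPM to 228, 215 and 204 CPM (-0.27 ± 0.05, edgeR adjusted p = 4.5e-04). Neither passed after subtraction of neighbour medians (-0.07 for each). Of 13 genes of CFIIm, polyadenylation and termination 4 fell and 1 rose: the poly(A)-binding protein gene PABPC1 (-0.31 ± 0.04), PPP1CB (-0.27 ± 0.06), the poly(A) polymerase gene PAPOLA (-0.25 ± 0.06) and XRN2 (-0.14 ± 0.05) fell, and PCF11 rose (0.21 ± 0.06). PPP1CB, PAPOLA and XRN2 no longer passed after that subtraction. XRN2 also lost its call without CFIm68 overexpression replicate 2 or 3 or control replicate 1 or 2, and PCF11 without control replicate 3.

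Of 14 tested genes known as targets of CFIm-dependent polyadenylation 5 fell and 1 rose. Falls numbered 2 without control replicate 1, 3 without CFIm68 overexpression replicate 3, and 1 after subtraction of neighbour medians. FHL1, a LIM-domain protein, rose from 169, 158 and 166 CPM to 195, 202 and 199 CPM (0.27 ± 0.05, edgeR adjusted p = 1.4e-04). GSK3B fell from 59.6, 57.6 and 56.2 CPM to 51.5, 49.1 and 40.1 CPM (-0.30 ± 0.07), and MSH6 (-0.20 ± 0.05) fell too. The 1 fall that passed after subtraction of neighbour medians was CCND1 (-0.35, edgeR adjusted p = 0.013), so GSK3B and MSH6 did not pass after it. VMA21, which stood at 29.8 ± 1.61 CPM in CFIm68 knockdown, was at 6.98, 6.12 and 4.94 CPM in control and 5.72, 3.79 and 3.14 CPM under overexpression, with overlapping groups (-0.52 ± 0.17, edgeR adjusted p = 0.025). The VMA21 call was lost without CFIm68 overexpression replicate 2 or 3 or control replicate 1 or 2, and that of CCND1 (-0.27 ± 0.10) without any 1 of the 6 libraries other than control replicate 2. Of 25 microRNA pathway genes 4 rose and 4 fell, with 3 rises and 2 falls without CFIm68 overexpression replicate 3 and 2 rises without control replicate 1. After subtraction of neighbour medians 1 rose and 2 fell. The helicase gene DDX17 rose from 190.2 ± 10.5 to 227 ± 11.3 CPM (0.25 ± 0.06) and the processing factor KHSRP fell from 744 ± 27.6 to 653 ± 5.76 CPM (-0.19 ± 0.04), but after that subtraction KHSRP had the opposite sign and did not pass (0.06). HNRNPA1 rose (0.17 ± 0.05) and GEMIN4 fell (-0.16 ± 0.05), and neither passed after it (0.11 and -0.04), and the smaller changes of DGCR8, SMAD4, DDX5 and PRKRA were each lost without at least 1 library.

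Position along the genome accompanied many of the small changes. On chromosome 13, 49.8% of 213 tested genes were higher and 2.82% lower, with a median log2 change of 0.21, and on chromosome 18 the median was 0.13. On chromosome 2, 40.0% of 826 genes were lower and 3.03% higher (median -0.17), and on chromosome 3, 35.3% of 677 were lower (median -0.16). In the plot by chromosome the other 19 medians lie between -0.11 and 0.10. In windows of 50 neighbouring tested genes, the highest median was 0.33 on chromosome 13 (19823482 to 32428311), where 35 genes rose and 0 fell, among them SHISA2, B3GLCT (0.70 ± 0.06) and SLC7A1. The lowest was -0.40 near the end of the X chromosome (150692971 to 155239817), where 32 fell and 1 rose, among them ATP2B3, FAM50A (112 ± 5.76 to 72.1 ± 6.96 CPM, -0.64 ± 0.06) and HMGB3 (-0.68 ± 0.07). After subtraction of these medians 2396 genes passed in place of 3605, of which 1856 were called both ways, and 303 of the 333 changes of at least 2-fold were still called.

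**Figure D5:**
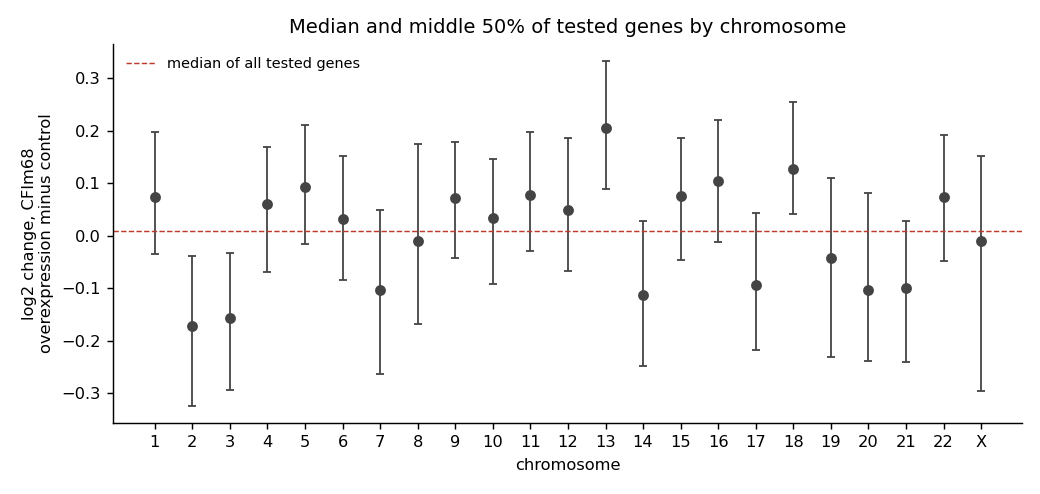
Points are the median log2 change of the tested genes on each chromosome and bars span the middle 50%; the dashed line is the median of all tested genes (0.01). Chromosome 13 is highest at 0.21, and chromosomes 2 and 3 are lowest at -0.17 and -0.16.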

How the data were processed

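RNA was measured in 14 HEK 293 libraries, made from total RNA with a stranded TruSeq mRNA kit per the labels' protocols. The authors deposited raw counts for each gene. Their processing notes name cutadapt 1.16, STAR 2.7.1a and the build hg38. The sources used here do not name the counting tool, annotation or strand setting.

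The analysis used edgeR 4.0.16 in R 4.3.3. Of 18006 genes, 12080 passed filterByExpr (minimum count 10, minimum total 15). After TMM scaling, all 14 libraries entered 1 quasi-likelihood model with a coefficient for each group. Benjamini-Hochberg adjustment ran over the 12080 genes, with a threshold of 0.05. Symbols came from the reference name table (17959 identifiers matched), coordinates from GENCODE 29 on hg38. On simulated counts for this comparison (11580 genes, 200 changed), 62%, 76%, 96% and 100% of genes changed 1.25-, 1.5-, 2- and 4-fold were recovered, and 5 unchanged genes were called. The simulation drew each gene independently, left out genes expected under 10 counts and held no shifts by chromosome. Far fewer genes changed in it than were called in the data, so its rates do not carry over to low-level genes or such shifts. The members, gene lists and naming rule were chosen with earlier results of these data known. Named are the CFIm subunits, the 15 largest rises and falls (mean 5 CPM or more, groups apart), the best-ranked members of each list by adjusted p, all past the threshold in the lists on 3' end processing and microRNAs, the largest zinc finger changes, genes near 0 in 1 group, and leading genes of the extreme windows; other genes were named after their values were seen, and some genes the rule names are not reported here. Alternatives were median-ratio scaling, other filters, a replicate block, DESeq2 1.42.0, limma-voom 3.58.1, the compared groups alone, removal of neighbour medians, and leaving out each library. Sequences were aligned with Biopython 1.88.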

Additional observations from a re-analysis of the deposited data

How the results depend on the processing

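Of the alternatives, only removal of the medians of 50 neighbouring genes moved the count of genes past the threshold by more than 1.5 times, from 3605 to 2396. Leaving out 1 library gave 2774 to 3366 genes, DESeq2 3379 and no filter 3763. The direct contrasts gave 7699 and 8109 genes and stayed within 1.5 times under every alternative run. Genes changed at least 2-fold numbered 333, and 248 to 362 under the alternatives. The genes near 0 in 1 group numbered 9, and 9 to 12 when 1 library was left out. The same replicate numbers in the 2 groups showed little shared deviation (r = 0.04, 0.03 and 0.02 for the same-numbered pairs, -0.08 to 0.06 for the others). These values do not settle whether a number marks libraries handled together, and the other groups were not checked this way. With the replicate block 4064 genes passed against control, 7921 against CFIm25 overexpression and 8317 against CFIm68 knockdown, and 337 changed at least 2-fold. With neighbour medians removed, 7 named genes turned to the other sign, with log2 changes near 0: KHSRP (0.0622), SMAD4 (-0.0360), CNOT11 (0.0702), LATS2 (-0.0620), MOB1A (0.08995), BUB1 (0.00248) and ATP6AP1 (0.029974). The cause was not tested. Another 58 named genes no longer passed and 173 were as before. Of 42 gene lists 17 had counts that moved by over 1.5 times with neighbour medians removed, and at most 9 under any other alternative (without control replicate 1). The genes near 0 were counted from CPM without a test, so the replicate block, DESeq2, limma-voom and neighbour medians give no count of them. Depth limits the genes under 1 CPM, where 1 CPM is fewer than 20 counts.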
